A study of Homo sapiens with 12 samples.

Results

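MDA-MB-468 cells in which doxycycline had switched on estrogen receptor beta (ERβ1, the full-length product of ESR2), with no estradiol added, were compared with the same cells left uninduced. The comparison was chosen by the sample titles and takes 6 of the 12 RNA-sequencing libraries of the study: 3 libraries called induced vehicle here and 3 called uninduced vehicle. Both groups were MDA-MB-468 cells carrying an inducible ERβ1, and both were held in DMEM without phenol red, first for 3 days with 10% and then with 5% serum that had been stripped with charcoal. Induced vehicle cells received 50 ng/mL doxycycline for 48 hours and uninduced vehicle cells did not. All 6 cultures then received 0.1% DMSO for 4 hours, after which total RNA was taken. The other 6 libraries had the same pair of doxycycline conditions but received 10 nM estradiol (E2) in place of DMSO for the last 4 hours, and they are used below only to set values beside the vehicle ones.

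MDA-MB-468 is a human breast cancer line of the triple-negative kind, which lacks the clinical markers estrogen receptor alpha, progesterone receptor and amplified HER2. ERβ is a nuclear receptor that binds DNA at estrogen response elements, palindromes of the core GGTCA, and also reaches genes through other factors such as AP-1 and SP1. Ligand binding reshapes its C-terminal domain so that coactivators can dock, while its N-terminal domain can act on transcription without ligand. Stripped serum and phenol red-free medium are used to keep estrogenic compounds low.

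The design has no library of cells given doxycycline without the ERβ1 gene, so a change due to doxycycline and a change due to the receptor cannot be told apart in this comparison. The labels name neither the promoter of the construct nor whether the line is 1 clone. Uninduced vehicle libraries held 7.89, 26.3 and 24.9 M expected counts and induced vehicle libraries 12.7, 31.8 and 19.0 M. Levels are given as CPM, counts scaled to the library total by TMM, always in the order of replicates 1, 2 and 3. A floor of 3 counts corresponded to 0.113 to 0.375 CPM in uninduced and 0.0943 to 0.233 CPM in induced libraries. Whether the replicates were separate cultures is not in the labels, and the p-values below reflect only how far these samples spread, which may be technical.

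The induced receptor was the gene with the largest change among those named here. ESR2 stood at 1.37, 1.06 and 1.47 CPM in the uninduced vehicle libraries and at 134, 113 and 115 CPM in the induced vehicle libraries. It rose by 6.55 on the log2 scale (standard error, SE, 0.15; adjusted p = 8.06e-12 by edgeR's quasi-likelihood test with Benjamini-Hochberg adjustment over 14541 genes). Per length, ESR2 went from 1.39 to 149 TPM, the share of transcripts corrected for length, which placed it above 13.1% of tested genes in uninduced cells and above 91.8% in induced cells. In induced cells it stood at 167, 139 and 141 TPM, and the orphan receptor NR2F6 at 125, 148 and 145 TPM. ESR2 was the higher of the pair in induced replicate 1 and the lower in replicates 2 and 3, so their order is not settled by these libraries. ESR1, which encodes estrogen receptor alpha, stood at 1.57 TPM in uninduced and 1.30 TPM in induced cells, so ESR1 and ESR2 lay close together before induction. The other clinical markers stood at 0.0094 and 0.014 TPM (PGR) and 32.0 and 33.7 TPM (ERBB2). The counts do not separate reads of the construct from reads of the cell's own ESR2 gene.

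Of the 14541 genes tested, 554 were called at an adjusted p under 0.05, which is 3.81%. Of these 355 rose (2.44% of genes tested) and 199 fell (1.37%). Most changes were small: 62 genes rose and 12 fell by at least 2-fold, and the other 480 called genes changed by less. The median log2 change was 0.41 among the genes that rose and −0.34 among those that fell. All 554 moved the same way in each of the 3 same-numbered pairs of libraries. These are the libraries that chose the 554 genes, so that agreement is a description and not a replication. In 553 of the 554 the 3 induced values did not overlap the 3 uninduced values. That separation was shown by 20.6% of all genes tested (10.5% with induced cells higher and 10.1% with induced cells lower). When the replicate number was added to the model as a block, 1456 genes were called (10.0%; 805 higher, 5.54%, and 651 lower, 4.48%), among them all 554.

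**Figure D1:**
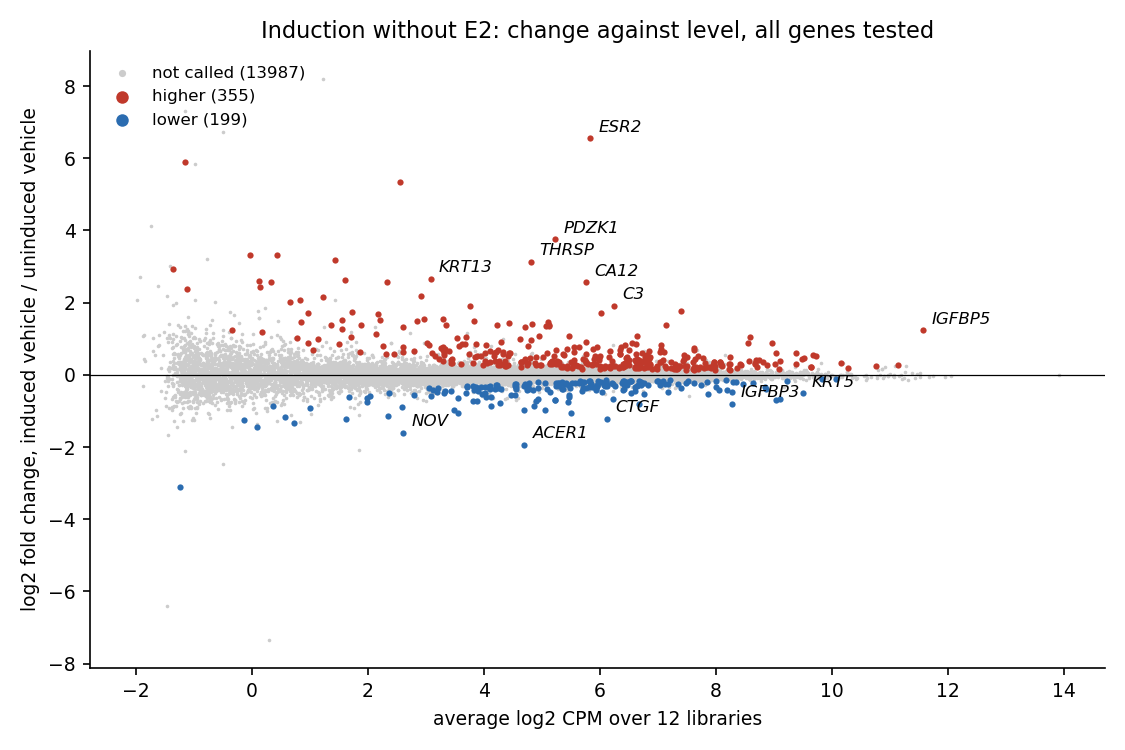
Log2 fold change of induced over uninduced vehicle cells (vertical axis) against the average log2 CPM over 12 libraries (horizontal axis), 1 point per gene tested, with the 355 genes called higher in red and the 199 called lower in blue. ESR2 lies highest among the called genes, and most called genes lie within 1 log2 unit of 0.

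Genes known as estrogen targets in breast cells stood at the upper end of the response. PDZK1, a scaffold protein of membrane transporters and a standard estrogen-receptor target, stood at 4.25, 4.00 and 3.89 CPM in uninduced and 86.5, 38.5 and 42.1 CPM in induced libraries. It rose 13.5-fold (log2 3.75, SE 0.39, adjusted p = 5.32e-05), and induced replicate 1 lay well above the other induced libraries. CA12, a membrane-bound carbonic anhydrase, stood at 7.62, 10.9 and 12 CPM in uninduced and 64.5, 62.6 and 64.6 CPM in induced libraries. CA12 rose 5.93-fold (log2 2.57, SE 0.09, adjusted p = 9.54e-10), and its induced libraries agreed closely.

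The promoters of PDZK1 and CA12 are shown because they are the clearest members of this class and each holds a single core of the estrogen response element, which most members of the estrogen-response list described below do not. The sequences are RefSeq's for GRCh38.p14, cover the 250 bases before the gene start on the gene's own strand, 5′ to 3′, and carry the core GGTCA in capitals. PDZK1 is at chr1:145707401-145707650 on the minus strand and CA12 at chr15:63381847-63382096 on the minus strand.
PDZK1: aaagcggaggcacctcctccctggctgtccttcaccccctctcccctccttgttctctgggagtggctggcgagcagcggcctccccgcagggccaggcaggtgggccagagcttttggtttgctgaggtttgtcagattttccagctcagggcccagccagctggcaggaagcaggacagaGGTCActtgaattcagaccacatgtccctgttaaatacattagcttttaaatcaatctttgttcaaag
CA12: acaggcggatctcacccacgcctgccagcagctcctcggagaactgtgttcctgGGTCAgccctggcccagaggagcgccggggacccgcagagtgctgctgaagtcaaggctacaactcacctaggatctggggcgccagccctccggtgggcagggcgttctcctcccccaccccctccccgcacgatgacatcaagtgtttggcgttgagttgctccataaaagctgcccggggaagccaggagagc
Among the 11101 tested genes with a promoter in the table (404 of the 554 called genes), GGTCA on either strand was in 30.2% of promoters. It was in 6 of the 30 promoters found for that list (20%), in 27.5% of the promoters of genes that rose and in 22.1% of those of genes that fell. The full palindrome, GGTCA followed by any 3 bases and then TGACC, contains the core and was in 2 of 11101 promoters and in 0 of the 255 promoters of genes that rose and 0 of the 149 of genes that fell. The AP-1 motif TGANTCA was in 4.15% of all promoters, 5.49% of those of genes that rose and 4.7% of those of genes that fell. A match is only a match of letters in this window.

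Of 38 tested genes on a list of estrogen-response genes, 18 rose and 0 fell, and 37 had a positive log2 change. The list's median was 0.38, against −0.0012 over all genes tested. Counts of list members here and below stand beside 2.44% of all genes tested that rose and 1.37% that fell. With the block these shares were 5.54% and 4.48%. Besides PDZK1 and CA12, WNT4, a ligand of the Wnt family needed in mammary branching, stood at 6.87, 7.66 and 8.34 CPM and then at 21.1, 18.5 and 19.0 CPM (log2 1.31, SE 0.09, adjusted p = 6.57e-07). XBP1, a transcription factor of the secretory pathway, stood at 323, 343 and 333 CPM and then at 522, 501 and 511 CPM (log2 0.62, SE 0.05, adjusted p = 2.22e-06). The groups did not overlap for either gene. CTSD, the lysosomal protease cathepsin D, rose by 0.62 log2, IGFBP4 by 0.47, the retinoic acid receptor RARA by 0.59 and NRIP1, a corepressor of ligand-bound nuclear receptors, by 0.29. GREB1, a classic estrogen target chosen for mention after its values were seen, was at 1.25, 1.51 and 1.35 CPM and then at 4.90, 1.85 and 1.89 CPM (log2 0.88, SE 0.41, adjusted p = 0.321). Its induced libraries were all above the uninduced ones, but 1 of them lay far above the other 2 and the gene was not called.

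Other genes of low starting level were among the largest increases. THRSP, a nuclear regulator of lipid synthesis, stood at 1.12, 1.62 and 1.27 CPM in uninduced and 12.4, 12.4 and 12.3 CPM in induced libraries (log2 3.14, SE 0.20, adjusted p = 4.82e-07). SCGB2A2, which encodes the secreted breast protein mammaglobin, stood at 0.250, 0.529 and 0.596 CPM and then at 6.45, 4.05 and 4.21 CPM (log2 3.19, SE 0.31, adjusted p = 2.59e-05). Its uninduced level rests on 31 counts over 3 libraries, and uninduced replicate 1 lay under the floor of 3 counts. The ratio of summed counts per count of library was 8.76, with a 95% interval of 6.04 to 13.1 that covers counting error only. CD34, a surface sialomucin known from blood progenitors and vessels, rose by 2.56 log2 (SE 0.24), from 1.25, 0.378 and 0.556 CPM to 3.58, 3.21 and 3.63 CPM. MAPK4, an atypical MAP kinase, rose by 2.19 log2, the pseudogene CYP2B7P1 by 2.14 and the sialyltransferase ST8SIA6 by 1.75. CYP2B7P1 resembles other CYP2 genes, so its counts are less certain.

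Several genes of epithelial defence rose as well. The complement protein C3 stood at 35.0, 28.3 and 26.8 CPM in uninduced and 132, 101 and 99.3 CPM in induced libraries (log2 1.92, SE 0.17, adjusted p = 8.92e-06). S100A7, the antimicrobial protein psoriasin, stood at 65.7, 58.5 and 61.5 CPM and then at 254, 187 and 189 CPM (log2 1.77, SE 0.10, adjusted p = 2.14e-07). The calprotectin subunits moved by similar amounts: S100A8 rose by 1.07 log2 (SE 0.05) and S100A9, from 251, 236 and 225 CPM to 559, 459 and 451 CPM, by 1.05 log2 (SE 0.08). The near copy S100A7A rose by 1.90 log2, and reads shared by S100A7 and S100A7A make their split uncertain. In a list of squamous differentiation and mucosal defence genes, 9 of the 21 tested rose and 0 fell (median 0.15), or 11 and 3 with the block. Of the 21, 12 had a positive and 9 a negative log2 change. The list does not hold CASP14, a gene of cornifying epidermis given below, which fell. The members that rose included KRT13, a keratin of mucosal surfaces (1.5, 1.66 and 1.31 CPM, then 16.5, 6.79 and 7.15 CPM; log2 2.67, SE 0.43, adjusted p = 0.00213). They also included the kallikrein proteases KLK7 (0.77 log2) and KLK8 (0.81 log2), named after their values were seen. CLU, the secreted chaperone clusterin, rose by 0.88 log2. Complement genes did not move as a list: of 16 tested, C3 and CLU rose and CD59, an inhibitor of the membrane attack complex, fell by 0.13 log2, with 8 members positive, 8 negative and a median of 0.01. With the block 3 rose and 2 fell. CD59 lost its call when any 1 uninduced vehicle library, or induced vehicle replicate 2 or 3, was left out, and with only the 2 groups fitted.

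**Figure D2:**
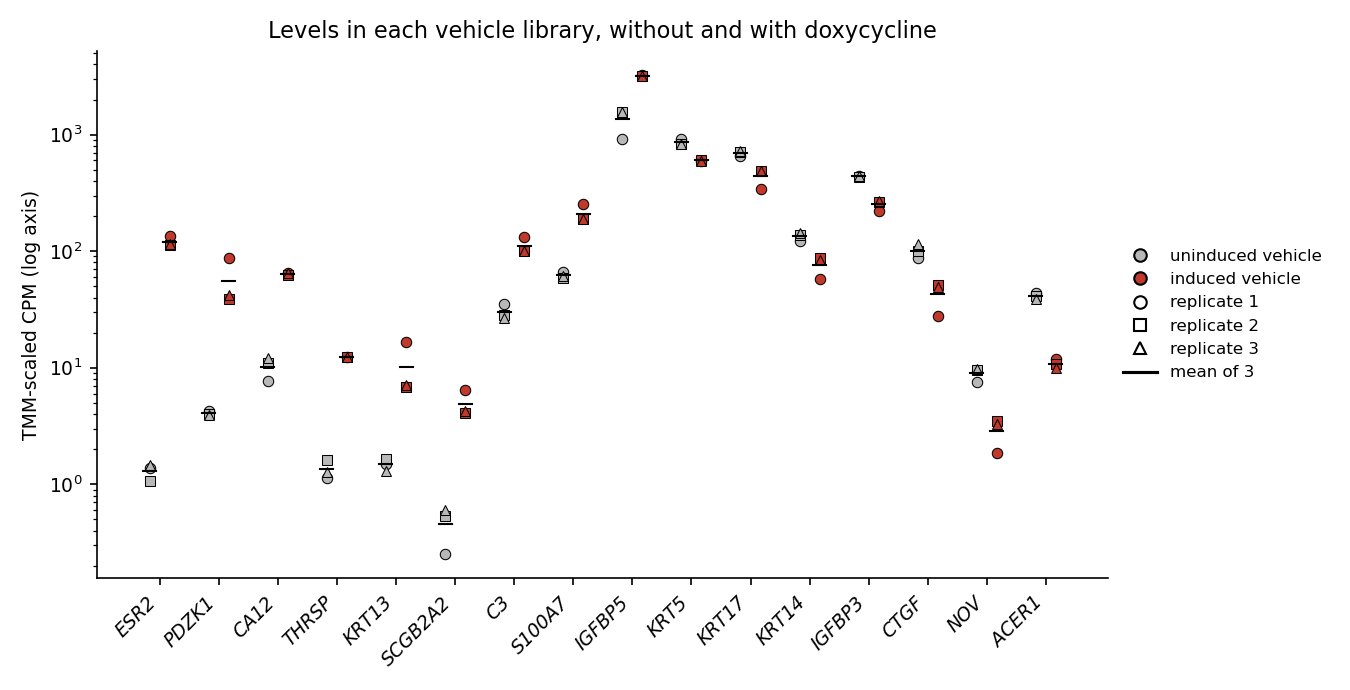
TMM-scaled CPM on a log axis for 16 named genes in the 3 uninduced vehicle libraries (grey) and the 3 induced vehicle libraries (red), with a bar at each mean and a symbol for each replicate number. Red and grey points do not overlap for any of these genes, and replicate 1 (circles) shows the widest gap for PDZK1, KRT13, KRT14 and CTGF.

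Lineage genes moved in both directions. In a list of luminal breast genes, 7 of 22 tested members rose and 0 fell (median 0.12), or 11 and 2 with the block. Of the 22, 15 had a positive and 7 a negative log2 change. KRT8, a keratin of simple and luminal epithelium, stood at 2010, 1947 and 1882 CPM in uninduced and 2398, 2326 and 2324 CPM in induced libraries (log2 0.27, SE 0.05, adjusted p = 0.00287). TFAP2C, a transcription factor of luminal cells, rose by 0.33 log2, the pioneer factor FOXA1 by 0.37 and the secreted glycoprotein AZGP1 by 0.34. The epithelial cadherin CDH1, which is not on the luminal list, rose by 0.23 log2. The fold changes of these 5 genes were 1.17 to 1.29, with groups that did not overlap. CDH1 is on a list of cadherins, claudins and junctions, in which 2 of 33 tested members rose and 3 fell, or 2 and 5 with the block. In that list 7 members were positive and 26 negative (median −0.06).

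Basal keratins fell. KRT5 stood at 910, 836 and 826 CPM in uninduced and 593, 610 and 599 CPM in induced libraries (log2 −0.51, SE 0.05, adjusted p = 2.43e-05). Its partner KRT14 stood at 122, 138 and 142 CPM and then at 57.5, 87.3 and 84.0 CPM (log2 −0.81, SE 0.12, adjusted p = 0.00136). KRT17 stood at 652, 712 and 727 CPM and then at 343, 484 and 488 CPM (log2 −0.67, SE 0.11, adjusted p = 0.00311). No induced value reached an uninduced one for any of the 3 keratins, and for KRT14 and KRT17 induced replicate 1 was the lowest library. KRT6B fell by 0.86 log2 and KRT16 by 0.68. KRT6A and KRT6B share long stretches of sequence, as do KRT14, KRT16 and KRT17, so the split of reads within each set is uncertain. In the list of basal and hemidesmosome genes, 10 of the 24 tested fell and 2 rose, KRT15 among them. The median was −0.18. The number that fell was 6 without uninduced vehicle replicate 3. The number that rose was 1 when replicate 2 or 3 of the uninduced cells or replicate 1 of the induced cells was left out, 4 by DESeq2 and 5 with the block (11 fell with it). CASP14, a caspase of cornifying epidermis, fell by 0.70 log2, and FOXQ1, a forkhead factor linked to mesenchymal change, fell by 0.72 log2.

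Growth-factor-binding and matrix genes included some of the largest shifts in abundant transcripts. IGFBP5, a secreted binding protein of insulin-like growth factors, stood at 919, 1548 and 1576 CPM in uninduced and 3263, 3174 and 3161 CPM in induced libraries (log2 1.24, SE 0.18, adjusted p = 0.000853). The induced libraries agreed closely, while uninduced replicate 1 was lower than the other uninduced libraries. IGFBP3, of the same family, moved the other way, from 438, 431 and 443 CPM to 223, 263 and 268 CPM (log2 −0.80, SE 0.06, adjusted p = 2.41e-06). In the list of insulin and IGF signaling genes, IGFBP4 and IGFBP5 rose, IGFBP3 fell and the other 14 of 17 tested members were not called.

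The CCN family of matricellular proteins split. CTGF (CCN2) stood at 87.3, 101 and 114 CPM in uninduced and 27.8, 51.3 and 49.5 CPM in induced libraries (log2 −1.21, SE 0.20, adjusted p = 0.00205). NOV (CCN3) stood at 7.49, 9.63 and 9.77 CPM and then at 1.87, 3.52 and 3.26 CPM (log2 −1.60, SE 0.23, adjusted p = 0.00075). CYR61 (CCN1) rose instead, from 100.2, 99.9 and 105 CPM to 180, 160 and 155 CPM (log2 0.70, SE 0.07, adjusted p = 1.72e-05). All 3 genes had groups that did not overlap. WISP2, of the same family, also rose, by 2.02 log2 (SE 0.40). Its means were 0.175 CPM in uninduced and 0.648 CPM in induced libraries, near the floor of 3 counts. In the list of CCN genes and YAP targets, 3 of 18 rose and 3 fell, or 5 and 3 with the block.

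A pair of secreted proteases that cut the matrix fell. ADAMTS5, an aggrecanase, stood at 4.62, 4.98 and 5.16 CPM in uninduced and 1.40, 2.55 and 2.10 CPM in induced libraries (log2 −1.23, SE 0.19, adjusted p = 0.00157). Its relative ADAMTS1 stood at 37.2, 43.3 and 47.0 CPM and then at 19.4, 28.5 and 28.7 CPM (log2 −0.73, SE 0.12, adjusted p = 0.00272). Of 18 tested matrix proteases and inhibitors, 5 fell and 0 rose, 14 were negative and 4 positive, and the median was −0.17. The others that fell were the proteases MMP2 and MMP7 and the inhibitor TIMP3. ADAMTS1 and ADAMTS5 kept their calls when any 1 library was left out, and the others did not: the list held 2 lower members without uninduced vehicle replicate 2 or any 1 induced vehicle library, 3 without uninduced vehicle replicate 3, and 3 by DESeq2 or with only the 2 groups fitted.

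Receptors and adhesion molecules of other systems also moved. KDR, the main VEGF receptor, fell from 35.5, 50.8 and 48.4 CPM to 18.1, 25.3 and 26.1 CPM (log2 −0.97, SE 0.16, adjusted p = 0.00188). NCAM1, a neural adhesion molecule, fell by 0.86 log2, TGFBR2, the type II TGF-beta receptor, by 0.31 and the tight junction claudin CLDN1 by 0.39. LTBP1, which anchors latent TGF-beta in the matrix, rose by 0.76 log2, SFRP1, a secreted Wnt antagonist, by 0.45 and SKIL, a SMAD corepressor, by 0.47. Leukocyte-type integrin chains rose together: ITGAL from 3.12, 3.59 and 3.57 CPM to 10.5, 10.2 and 10.2 CPM (log2 1.55, SE 0.09, adjusted p = 2.09e-07) and its partner ITGB2 from 13.2, 14.3 and 13.5 CPM to 20.8, 21.6 and 21.7 CPM (log2 0.63, SE 0.10, adjusted p = 0.00126). Of 11 leukocyte markers 5 were tested and CSF1R alone was called, at 0.72 log2. CD3D, MS4A1 and NKG7 were at 0 in all 6 libraries. Of 54 tested integrin, laminin and collagen genes, 4 rose (7.41%) and 3 fell (5.56%), but with the block 6 rose and 12 fell.

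Lipid and sugar metabolism showed some large changes of single genes, while the median changes of the lists were small. ACER1, an alkaline ceramidase of epidermis, had the largest decrease among the genes named, from 43.7, 41.0 and 38.9 CPM to 11.9, 10.7 and 9.89 CPM (log2 −1.93, SE 0.07, adjusted p = 9.54e-10). SGPL1, which splits sphingosine phosphate, fell by 0.33 log2, and in all 3 of 28 tested ceramide and sphingolipid genes fell and 1 rose (median 0.02). Of 27 fatty acid synthesis genes 4 rose (14.8%) and 0 fell, with 18 members positive, 9 negative and a median of 0.06. The 4 were led by THRSP and by PNPLA3, a lipid droplet enzyme, at 0.58 log2. Under the block 8 rose and 1 fell. PFKFB3, an activator of glycolysis, stood at 40.7, 46.9 and 44.5 CPM and then at 82.7, 81.6 and 81.4 CPM (log2 0.88, SE 0.07, adjusted p = 2.22e-06). Among 41 glycolysis and hypoxia genes 4 rose (9.76%) and 1 fell (2.44%), with a median of 0.006. The gene that fell was the stress-responsive NDRG1 at −0.99 log2 (26.7, 29.5 and 30.1 CPM, then 9.56, 15.8 and 17.4 CPM). With the block 4 rose and 5 fell.

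Metallothioneins, small proteins that bind zinc and copper, rose together. MT2A stood at 612, 618 and 594 CPM in uninduced and 965, 852 and 843 CPM in induced libraries (log2 0.54, SE 0.08, adjusted p = 0.000629). MT1X stood at 61.0, 75.2 and 72.9 CPM and then at 123, 106 and 107 CPM (log2 0.66, SE 0.08, adjusted p = 0.000138). MT1E rose by 0.44 log2 and MT1F by 0.36, so that 4 of the 8 tested members of the metallothionein and zinc transport list rose and 0 fell. The count was 4 in each fit that left out 1 library, and 2 when all libraries numbered 2 or all numbered 3 were left out. The MT1 genes are close copies, and their counts are less certain than that of MT2A.

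The promoters of MT1X (chr16:56682220-56682469, plus strand) and MT2A (chr16:56608334-56608583, plus strand), from RefSeq for GRCh38.p14, are shown because both carry repeated matches to the metal response element core, TGCACNC or TGCGCNC on either strand, printed in capitals.
MT1X: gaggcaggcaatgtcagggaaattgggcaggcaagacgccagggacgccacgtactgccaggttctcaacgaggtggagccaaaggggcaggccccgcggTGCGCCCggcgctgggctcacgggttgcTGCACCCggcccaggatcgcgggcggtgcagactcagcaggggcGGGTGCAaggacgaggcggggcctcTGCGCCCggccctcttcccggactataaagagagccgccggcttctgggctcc
MT2A: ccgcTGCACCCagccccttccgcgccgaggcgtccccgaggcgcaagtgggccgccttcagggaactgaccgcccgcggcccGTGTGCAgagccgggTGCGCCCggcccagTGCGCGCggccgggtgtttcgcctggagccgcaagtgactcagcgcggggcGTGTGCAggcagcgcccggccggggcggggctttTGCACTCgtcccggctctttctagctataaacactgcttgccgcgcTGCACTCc
MT1X held 4 matches and MT2A 7, and 32.8% of the 11101 promoters held at least 1. Among genes that rose the share was 29%, and among genes that fell 36.2%.

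Interferon-stimulated genes lay higher in induced cells by small and similar amounts. BST2, the antiviral tetherin, stood at 246, 224 and 232 CPM in uninduced and 307, 298 and 292 CPM in induced libraries (log2 0.36, SE 0.07, adjusted p = 0.0061). ISG15, a ubiquitin-like interferon product named after its values were seen, stood at 196, 131 and 140 CPM and then at 200, 182 and 184 CPM (log2 0.30, SE 0.16, adjusted p = 0.416, or 0.00329 with the block). Its groups overlapped, because uninduced replicate 1 was high. Of 36 tested members 6 rose and 0 fell, all 36 had a positive log2 change and the median was 0.34. The block raised the calls to 34 higher and 0 lower. The count without the block depended on single libraries: 13 were called without uninduced vehicle replicate 1, 1 without uninduced vehicle replicate 2, and 2 without any other 1 of the 6. Upper quartile scaling gave 4 calls, and leaving the filter out or fitting only the 2 groups gave 10. The medians within same-numbered pairs were 0.28, 0.46 and 0.33.

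The promoters of BST2 (chr19:17405631-17405880, minus strand) and ISG15 (chr1:1013247-1013496, plus strand), from RefSeq for GRCh38.p14, are printed to show the interferon response element core, GAAA repeated after any 2 bases, sought on either strand and given in capitals. In both genes 2 matches overlap and read as 1 run.
BST2: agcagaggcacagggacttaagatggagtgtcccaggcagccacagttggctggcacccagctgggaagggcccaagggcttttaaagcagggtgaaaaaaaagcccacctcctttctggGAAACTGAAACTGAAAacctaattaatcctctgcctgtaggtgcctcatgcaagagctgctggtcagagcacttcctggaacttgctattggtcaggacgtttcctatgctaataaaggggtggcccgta
ISG15: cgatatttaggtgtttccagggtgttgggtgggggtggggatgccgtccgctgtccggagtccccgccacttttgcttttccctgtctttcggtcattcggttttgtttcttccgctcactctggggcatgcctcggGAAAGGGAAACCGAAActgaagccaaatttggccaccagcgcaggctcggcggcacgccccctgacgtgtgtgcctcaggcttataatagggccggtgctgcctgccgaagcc
The core was in 16 of the 28 promoters found for the interferon-stimulated list (57.1%) and in 2.3% of all 11101. It was in 3.53% of the promoters of all genes that rose and in 4.03% of those of genes that fell.

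Proliferation genes were lower by small amounts. In the S phase list 46 of 48 tested members had a negative log2 change, with a median of −0.13, and 4 passed the test. E2F2, an activator of replication genes, stood at 62.6, 60.9 and 62.2 CPM in uninduced and 47.3, 53.2 and 54.0 CPM in induced libraries (log2 −0.26, SE 0.05, adjusted p = 0.00598). In the G2 and mitosis list all 42 tested members had a negative log2 change, with a median of −0.10, and 4 passed. UBE2C, the ubiquitin-conjugating enzyme of mitotic exit, stood at 70.7, 68.9 and 67.9 CPM and then at 58.9, 58.1 and 53.7 CPM (log2 −0.28, SE 0.04, adjusted p = 0.00159). With the block 17 S phase genes and 14 G2 and mitosis genes fell. Without the block, leaving out any 1 of the 6 libraries left 1 or 2 S phase genes, and upper quartile scaling gave 8. For G2 and mitosis, 1 gene was left without uninduced replicate 1 or 3 or induced replicate 3, and 2 without induced replicate 2 or by DESeq2. Without uninduced replicate 1, 35 of the 42 were negative. CDKN2B, an inhibitor of the kinases CDK4 and CDK6, fell too (−0.40 log2), and MXD1, an antagonist of MYC, rose by 0.84 log2. Of 37 ribosome biogenesis genes 35 had a negative log2 change (median −0.08), and 3 fell, or 6 with the block. RRP12, a pre-ribosome export factor, was at −0.30 log2, and leaving out single libraries left 1 or 2 of the 3.

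**Figure D3:**
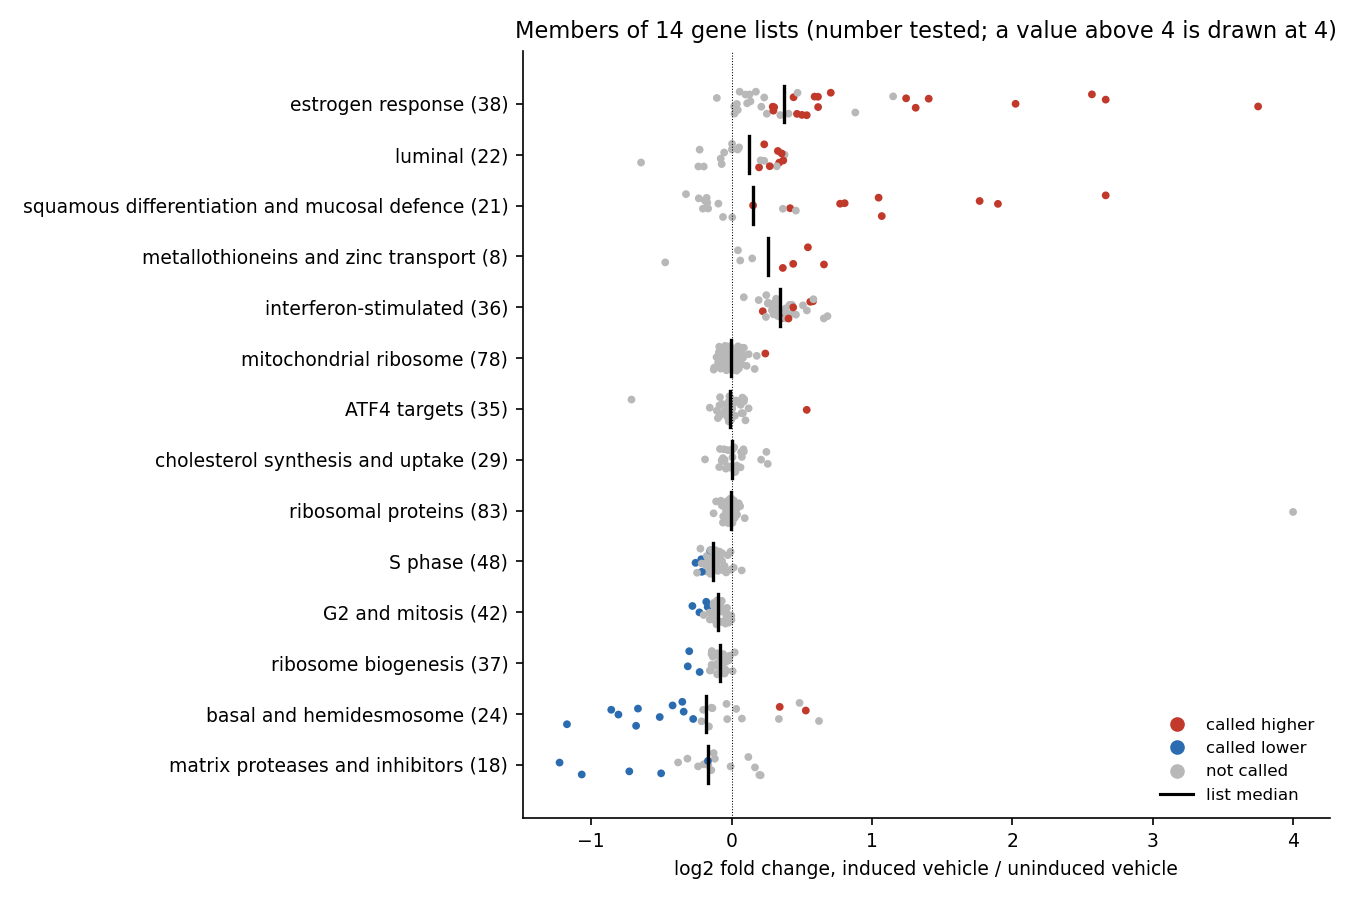
Log2 fold change of induced over uninduced vehicle cells for the tested members of 14 gene lists, with genes called higher in red, called lower in blue, others in grey and a black bar at the median of each list. Estrogen-response and interferon-stimulated genes lie to the right (medians 0.38 and 0.34), S phase and G2 genes slightly to the left (−0.13 and −0.10), and ribosomal proteins are centred at 0.

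Several lists had few or no calls in the fit without the block. Over all genes tested 2.44% rose and 1.37% fell, so lists of these sizes would hold few calls at those shares. Ribosomal protein genes (83 tested), cholesterol synthesis and uptake (29), antigen presentation (16), Notch (28), BCL2 family (20) and circadian clock genes (21) had 0 members called in either direction. With the block, 3 cholesterol genes rose and 1 fell, 1 Notch gene rose and 2 fell, 1 circadian gene rose and 2 fell, 1 BCL2 family gene rose, and 1 antigen presentation gene and 1 ribosomal protein gene fell. Mitochondrial ribosome genes (78) had 1 member that rose, MRPL15, and respiratory chain genes (77) had 1 that fell, UQCRFS1. With the block, 2 mitochondrial ribosome genes rose and 1 fell, and the respiratory chain count was the same. ATF4 targets (35) had 1 member that rose (2.86%, near the share of all genes). The unfolded protein response (25) had 2 that rose (8%, against 2.44% of all genes), XBP1 among them. With the block, 2 ATF4 targets rose and 3 fell, and 4 unfolded protein response genes rose and 0 fell. The median log2 changes of these 10 lists lay between −0.02 and 0.07. Among nuclear receptors (29 tested) ESR2 and RARA rose and 0 fell, or 3 and 2 with the block. Among receptor coregulators (29 tested) 4 rose and 0 fell, including NCOA4 at 0.33 and NRIP1 at 0.29 log2. Another of the 4, TBL1XR1, lost its call when any 1 vehicle library other than induced replicate 2 was left out.

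The size of the response differed between the same-numbered pairs of libraries. Among the 355 genes that rose, the median log2 difference was 0.48 in pair 1, 0.38 in pair 2 and 0.38 in pair 3, and pair 1 had the largest difference for 227 genes. Among the 199 that fell, the median drop was 0.44, 0.30 and 0.29, and pair 1 had the largest for 150. Estrogen-response genes had their largest median in pair 1 (0.48, against 0.28 and 0.35). Interferon-stimulated genes, in contrast, had their smallest there. Libraries numbered 1 carry another file-name tag, which reads like a date, than those numbered 2 and 3, which share a tag. For number 1 against numbers 2 and 3, the number, the lane and the tag go together and cannot be told apart.

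**Figure D4:**
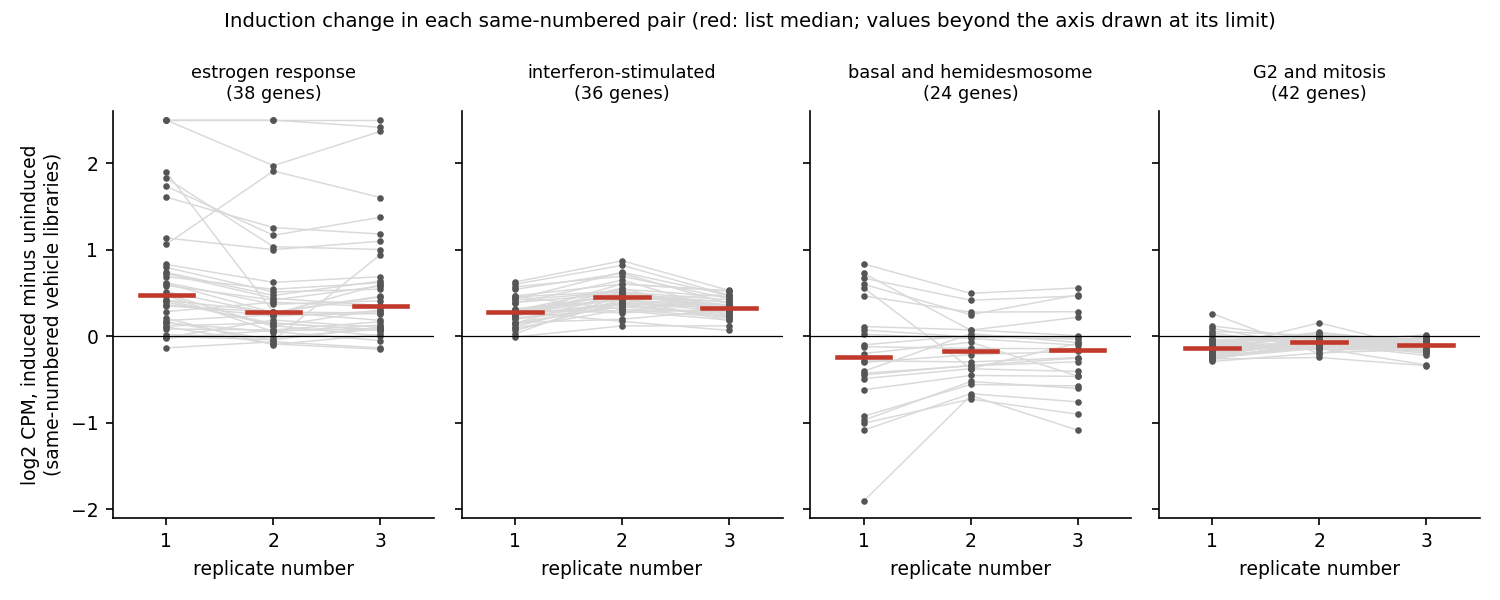
Log2 CPM of the induced minus the uninduced vehicle library of the same replicate number, for the members of 4 gene lists; each grey line is a gene and each red bar the list's median in that pair. Interferon-stimulated genes are above 0 in nearly every pair, with medians of 0.28, 0.46 and 0.33, and estrogen-response medians are 0.48, 0.28 and 0.35.

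The same doxycycline comparison in the E2 libraries, which share no library with the vehicle comparison, moved most of these genes the same way. Both comparisons come from the same fit and share its estimate of the spread of each gene, so their calls are not independent. Of the 355 genes that rose without E2, 322 (90.7%) also rose with E2, where 15% of all genes tested rose, 29 were not called and 4 fell. Of the 199 that fell without E2, 167 (83.9%) also fell with E2, where 13.0% of all genes fell, 26 were not called and 6 rose. The median log2 change of the genes that rose was 0.88 with E2, and that of the genes that fell was −0.48. PDZK1 rose by 3.75 log2 without E2 and 4.40 with E2 (interaction adjusted p = 0.662), and C3 by 1.92 and 2.16 (0.672). ACER1 fell by 1.93 log2 without E2 and 1.83 with E2 (0.697), and KRT5 by 0.51 and 0.52 (0.977). For these 4 genes the test of the difference did not pass, but with the block it passed for PDZK1 and C3 (adjusted p = 0.0124 and 0.00726), and for ACER1 and KRT5 it did not (0.55 and 0.917). In WNT4 (1.31 and 3.25 log2), CDH1 (0.23 and 1.17), TFAP2C (0.33 and 1.09) and IGFBP3 (−0.80 and −1.80) it did, with adjusted p of 1.96e-07, 1.96e-07, 2.35e-06 and 3.87e-06. In all, 259 of the 554 genes had a difference that passed (against 8.47% of all genes tested, 5.66% more positive and 2.81% more negative with E2): 183 of the genes that rose changed more positively with E2 and 12 less so, and 50 of those that fell changed more negatively and 14 less so. This last test uses the vehicle libraries that chose the 554 genes, so its counts are a description.

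**Figure D5:**
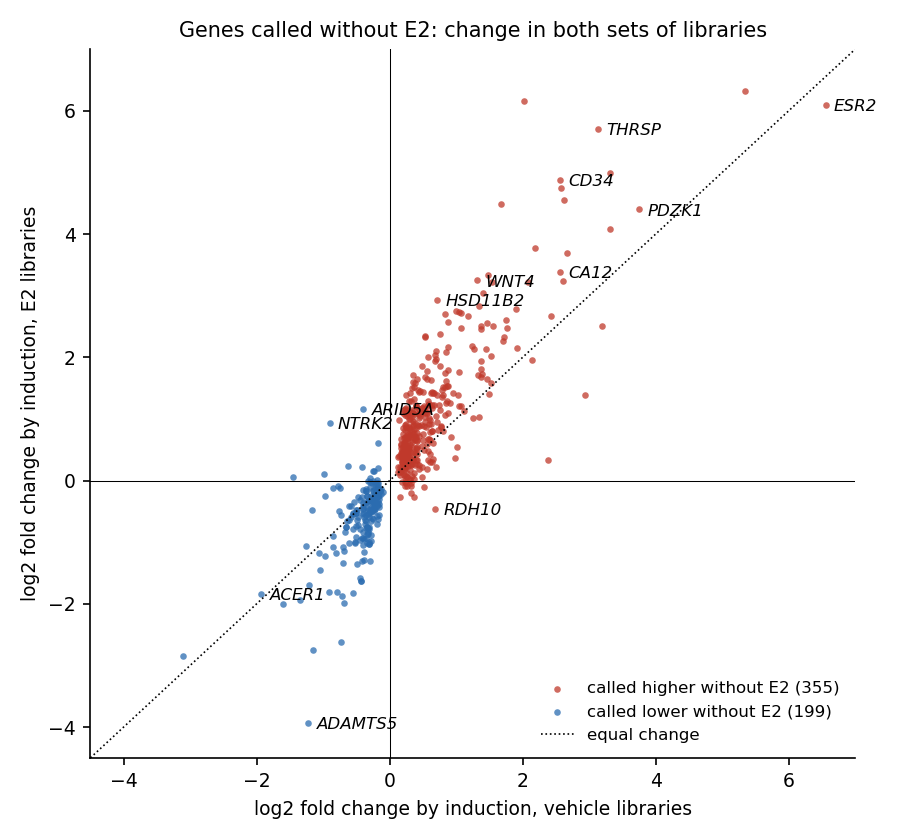
Log2 fold change by induction in the E2 libraries (vertical axis) against that in the vehicle libraries (horizontal axis) for the 355 genes called higher (red) and 199 called lower (blue) without E2, with a dotted line at equal change. Most points share the sign of both changes, and many red points lie above the line, among them WNT4 and THRSP.

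Markers of other cell types were mostly low, and of those tested CSF1R alone was called. The genes tested were 4 of 11 fibroblast, 5 of 11 leukocyte, 2 of 8 endothelial and 3 of 6 adipocyte markers. The others did not pass the filter and could not be called. Over all genes tested 3.81% were called. Summed over 11 fibroblast markers the level was 18 to 20.6 TPM in uninduced and 20.8 to 21.6 TPM in induced libraries, with DCN, LUM, THY1 and POSTN at 0 in all 6. Over 11 leukocyte markers it was 49.8 to 60.7 and 54.8 to 66.3 TPM. Most of this was CD14, which was not low, with means of 44.7 TPM in uninduced and 46.2 TPM in induced libraries. Over 8 endothelial markers the level was 4.39 to 4.92 and 4.70 to 5.06 TPM, and over 6 adipocyte markers 0.77 to 1.29 and 1.19 to 1.59 TPM. The endothelial markers do not include CD34 and KDR, whose changes are given above. The epithelial markers summed to 7490 to 7618 TPM in uninduced and 8388 to 8866 TPM in induced libraries. In bulk RNA, fewer cells of a kind and less RNA per cell cannot be told apart.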

How the data were processed

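Total RNA of 12 samples (4 groups of 3) was sequenced, with the RNeasy Plus kit and TruSeq Sample Preparation V2 per the labels' protocols. The authors deposited, per library, an expected count for each of 23228 genes and each gene's fraction of transcripts. Here the fraction was scaled to TPM. RSEM 1.1.16, DESeq 1.7.10 and the hg19 build are named in the submitters' processing notes, without roles, and no aligner is named in them.

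After rounding, the expected counts were tested in R 4.3.3 with edgeR 4.0.16. FilterByExpr chose the genes (minimum count 10, minimum total 15, leaving 14541). Libraries were scaled by TMM, and a model was fitted over all 12 with 1 mean per group (8 residual degrees of freedom) by quasi-likelihood, with Benjamini-Hochberg adjustment per contrast and a threshold of 0.05. The contrasts were induction without E2, induction with E2 and their difference (the interaction). SE is that of the fit. Pair differences use log2 CPM with a prior count of 2. The test was checked on simulated data.

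Replicate numbers come from the titles. Over 12376 genes, deviations of same-numbered libraries correlated at 0.104 to 0.464 in 18 pairs and those of other pairs at −0.427 to 0.278. All negative values came from pairs that held a library numbered 1. Libraries numbered 2 and 3 correlated positively with each other too. Uninduced vehicle replicate 3 had 0.259 with induced E2 replicate 2 and 0.104 with induced E2 replicate 3. These values set number 1 apart and do not show that numbers 2 and 3 each pair the samples. The fit with the number as a block (6 residual degrees of freedom) is given where it changed the call of a gene named or moved the count of called genes in a list described by over 1.5 times. Alternatives were the block, DESeq2 1.42.0, limma-voom (limma 3.58.1), RLE and upper quartile scaling, other filters, only the 2 groups compared, a threshold of 0.01, the file-name tag, and leaving out each library or number.

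The comparison, the 51 gene lists and the rules were chosen with earlier results of these data known. Genes were named as follows: ESR2; the 15 largest increases and 15 largest decreases among called genes (average log2 CPM 1 or more, the same sign in 3 pairs); the 10 called genes with the largest CPM difference; and up to 4 called members of each list by p, or 2 where none was called. Some of the genes so picked are not reported here, and others are covered by counts. Promoters are RefSeq's for GRCh38.p14, matched by symbol (9827) or synonym; the genes printed were chosen after their values were seen. No gene coordinates are given in hg19.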

Additional observations from a re-analysis of the deposited data

Results flagged for a closer look

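Among the 554 genes called for induction without E2, 259 had an induction change that differed between E2 and vehicle libraries by the interaction test at an adjusted p under 0.05. In 10 of these the change was called in opposite directions. Of these 10, 6 fell without E2 and rose with E2. NTRK2, a neurotrophin receptor, stood at 4.75, 5.66 and 5.48 CPM in uninduced vehicle and 3.03, 2.86 and 2.84 CPM in induced vehicle libraries, and at 4.47, 5.26 and 5.68 CPM in uninduced E2 and 7.90, 11.5 and 10.2 CPM in induced E2 libraries (interaction 1.84 log2, SE 0.21, adjusted p = 4.21e-05). ARID5A, an RNA-binding regulator, fell by 0.39 log2 without E2 and rose by 1.16 with E2 (interaction 1.55). The protease inhibitor TIMP3 was at −0.17 and 0.61 log2 (interaction 0.78). CRISPLD2 and TRIM2 showed interactions of 0.40 and 0.39 log2. The calls without E2 of TIMP3, CRISPLD2 and TRIM2 depended on single libraries. TIMP3 lost its call without uninduced vehicle replicate 2 or 3 (adjusted p = 0.144 and 0.175 by edgeR) or any 1 induced vehicle library (0.106, 0.0504 and 0.135). CRISPLD2 lost it without uninduced vehicle replicate 2 (0.0559) or induced vehicle replicate 3 (0.0527). TRIM2 lost it without uninduced vehicle replicate 3 (0.0886) or induced vehicle replicate 2 or 3 (0.0695 and 0.0599).

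The other 4 genes rose without E2 and fell with it. RDH10, which makes retinaldehyde, stood at 78.1, 88.4 and 85.8 CPM in uninduced and 135, 135 and 138 CPM in induced vehicle libraries, and at 77.3, 88.0 and 82.7 CPM in uninduced and 58.5, 60.5 and 61.5 CPM in induced E2 libraries (interaction −1.14 log2, SE 0.07, adjusted p = 2.80e-07). FOXA1 was at 0.37 log2 without E2 and −0.26 with E2 (interaction −0.63), the death ligand TNFSF10 at 0.33 and −0.20 (−0.52), and the kinase PLK2 at 0.15 and −0.27 (−0.43). PLK2 lost its call without E2 when uninduced vehicle replicate 1 or 2 (adjusted p = 0.0956 and 0.133 by edgeR) or induced vehicle replicate 2 or 3 (0.117 and 0.115) was left out. Genes of this kind were found by looking through all calls, and the interaction uses the same vehicle libraries as the call without E2.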

How the results depend on the processing

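No gene called in the fit reported changed sign under any alternative. The fit with the replicate block gave 1456 called genes (805 higher, 651 lower) and 671 interactions among genes called without E2. The file-name tag as a covariate gave 1451 (801 and 650) and 668. Only libraries of the later tag gave 1082 (643 and 439) and 560, and these with the block, an alternative chosen after seeing the data, gave 1161 (683 and 478) and 614. A threshold of 0.01 gave 296 (217 and 79) and 133. Only the 2 groups compared gave 128 lower genes. Leaving out 1 library or 1 replicate number gave 106 to 1082 called genes, 88 to 643 higher, 18 to 439 lower and 37 to 560 interactions. The lowest counts came without replicate 3 and the highest without replicate 1. The cause was not tested. Without uninduced vehicle replicate 2, 364 genes were called (111 lower), and without replicate 3 of that group 369 (112 lower). Lower genes were 125 without induced vehicle replicate 1 and 113 without replicate 3. DESeq2 (592), limma-voom (562), RLE (559), upper quartile scaling (556) and the 2 other filters (570 and 569) gave similar counts. Of the 132 named genes called, 35 kept the call in all 20 settings other than the threshold of 0.01. Uninduced vehicle replicate 1 was the shallowest library, with 7.89 M counts, which limits genes of low level such as SCGB2A2.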
